A study of Mus musculus with 2 samples.

Results

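The genes described here are 10 members of the MHC class II pathway of the mouse, out of 28692 genes listed in the count tables: the invariant chain Cd74, the classical chains H2-Aa, H2-Ab1 and H2-Eb1, the peptide-loading chains H2-DMa, H2-DMb1 and H2-DMb2, the loading inhibitor chains H2-Oa and H2-Ob, and the master regulator Ciita. They were chosen by name, not by their values. The data were single-cell RNA libraries of CD45+ leukocytes sorted from the livers of 6-week-old C57BL/6 mice. 1 library came from mice whose drinking water held 4 antibiotics for 1 week, namely metronidazole and ampicillin at 1 mg/mL each and neomycin and vancomycin at 0.5 mg/mL each, and 1 library came from mice given vehicle for 1 week. How many mice were pooled per library was not given in the sources used here, and with 1 library per group no difference between antibiotic and vehicle had a replicate check and none was tested. The series' comparison asks what oral antibiotics do to hepatic immune cells, and here it is followed for the class II genes alone.

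MHC class II molecules present peptides from the endocytic pathway to CD4+ T cells. The α chain (H2-Aa) and β chain (H2-Ab1) form I-A, and H2-Eb1 is the β chain of I-E, whose α chain gene is defective in the C57BL/6 strain. Cd74 occupies the groove until H2-M (H2-DMa with H2-DMb1 or H2-DMb2) exchanges its remnant for peptide, H2-O (H2-Oa with H2-Ob) restrains that exchange, and Ciita is recruited to a shared X and Y box arrangement in the promoters of these genes. B cells, dendritic cells and some monocytes and macrophages are the usual sites of expression, whereas resting mouse T cells and NK cells make little or none. Cd74 is encoded on chromosome 18, apart from the other members.

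8 members lie in 1 block of chromosome 17 (GRCm38, GENCODE gene spans). In order they are H2-Oa (34092340 to 34095234), H2-DMa (34119541 to 34139101), H2-DMb2 (34143307 to 34151555), H2-DMb1 (34153072 to 34160230), H2-Ob (34238903 to 34254414), H2-Ab1 (34257689 to 34269419), H2-Aa (34282744 to 34287823) and H2-Eb1 (34305867 to 34316674). H2-Aa lies on the minus strand and the other 7 on the plus strand. Ciita lies on chromosome 16 (10480059 to 10528418, plus strand). H2-DMb1 and H2-DMb2 are neighbours and near-identical copies, so that reads matching both could be split or lost in counting, and their values carry that uncertainty.

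Promoter sequence, from 250 bases before to 50 bases after the RefSeq start (GRCm38.p6), was given for 7 members. 6 of them held TGATTGG, which holds the CCAAT core of the Y box in reverse complement, on the strand of the gene and between 45 and 92 bases before the start. They are shown because Ciita is recruited to promoters through an arrangement of this kind. Each line runs 5′ to 3′ on the strand of the gene, with TGATTGG and the AAC triplet found 23 to 26 bases ahead of it, in the X box region, in capitals. Those letters were picked after the sequences had been looked at.
H2-Aa (chr17:34287859-34287910, minus strand): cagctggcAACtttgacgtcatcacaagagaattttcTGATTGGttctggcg
H2-Eb1 (chr17:34305770-34305820, plus strand): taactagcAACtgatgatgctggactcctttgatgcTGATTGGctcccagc
H2-DMb1 (chr17:34153091-34153142, plus strand): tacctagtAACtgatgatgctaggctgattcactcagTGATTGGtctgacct
H2-DMb2 (chr17:34145120-34145171, plus strand): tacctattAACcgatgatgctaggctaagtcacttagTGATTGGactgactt
H2-Oa (chr17:34092297-34092348, plus strand): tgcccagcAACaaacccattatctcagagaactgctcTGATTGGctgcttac
H2-Ob (chr17:34238812-34238860, plus strand): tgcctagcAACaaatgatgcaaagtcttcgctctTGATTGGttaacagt

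The windows of H2-Eb1, H2-DMb1, H2-DMb2 and H2-Ob also shared the letters ATGATGC, whereas those of H2-Aa and H2-Oa did not. ATGATGC stood, on either strand, in 2.46% of all promoters. The letters TGATTGG stood, on either strand, in 2568 of 32851 promoters of the same length (7.82%). AAC followed by TGATTGG with 18 to 32 bases between them, on either strand, stood in 441 (1.34%). The seventh member, H2-DMa, held TGATTGG on neither strand within the windows of its 2 annotated starts, which says only that these letters are not there. A match is a description of the sequence and not evidence of binding.

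The antibiotic library held 29811401 UMIs (unique molecular identifiers, 1 per counted RNA molecule) and the vehicle library 41474311. Barcodes with 1500 or more UMIs and under 10% mitochondrial UMIs were taken as cells, which left 7050 antibiotic and 9002 vehicle cells at median depths of 3331 and 3515 UMIs, and 93 barcode sequences occurred as cells in both libraries. Classes were set by rules on genes outside the class II pathway. B cells (Cd79a) numbered 1340 and 3016, plasmacytoid dendritic cells (pDCs, Siglech) 34 and 174, conventional dendritic cells (cDCs; Xcr1, Clec9a or Cd209a) 8 and 26, monocytes and macrophages (Lyz2 with Csf1r) 23 and 109, and T cells (Trac) 4458 and 4062 in the antibiotic and vehicle libraries. The other 1187 and 1615 cells were left ungated. Levels are in CPM, the counts of a gene scaled to the total UMIs of its class. Since 3′ libraries count 1 tag per molecule, no scaling by gene length was applied. Intervals are exact 95% Poisson, conditional or Clopper-Pearson intervals that cover counting error only, not the spread between cells or mice.

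The defining markers were present in each class, the genes of each gate by its rule. All 8 B cell genes and all 6 pDC genes on the marker lists had UMIs in the class named for them in both libraries, and the cDC gate lacked only Ccr7, in the antibiotic library. The pDC gate also held neutrophil genes in the vehicle library (a summed 4142 CPM over 6 of 6 genes) but none in the antibiotic library (0 of 6), and B cell genes at a summed 1428 CPM in antibiotic and 2066 CPM in vehicle pDCs. The cDC gate held monocyte genes at 2359 and 4043 CPM, T cell genes at 207 and 982 CPM, pDC genes at 300.1 and 532 CPM, NK cell genes at 259 and 62.4 CPM and Kupffer cell genes at 0 and 175 CPM. The monocyte gate held Kupffer cell genes at a summed 4948 and 5847 CPM and T cell genes at 1969.8 and 1069.6 CPM in the antibiotic and vehicle libraries. The part of these other cell types in the class II values was not tested.

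Class II RNA was highest in cDCs and B cells. The 10 genes together reached 49555 CPM in antibiotic and 51655 CPM in vehicle cDCs, against 41489.5 and 43952 CPM in B cells, 17632 and 17352 CPM in pDCs, 15782 and 17978 CPM in monocytes, and 746 and 1685 CPM in T cells. cDCs stood above B cells by 1.19-fold in the antibiotic library (1.16 to 1.23) and by 1.18-fold in the vehicle library (1.15 to 1.196). pDCs stood at 0.425 and monocytes at 0.3804 of the B cell level in the antibiotic library, and at 0.395 and 0.409 in the vehicle library. The order of pDCs and monocytes thus turned round between the libraries, while the rest of the order was the same in both.

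**Figure D1:**
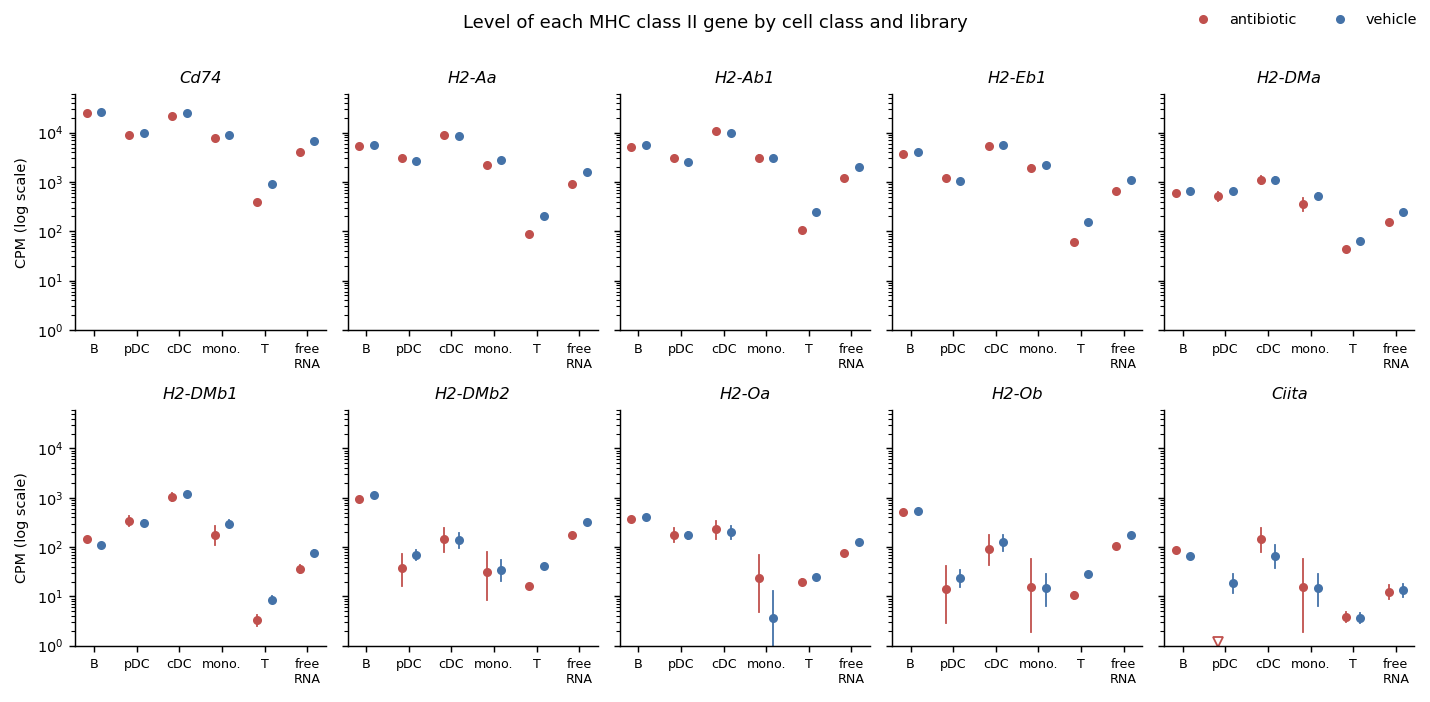
Level of each of the 10 MHC class II genes in 5 leukocyte classes and in free RNA (barcodes with 1 to 49 UMIs), in CPM on a log axis, with antibiotic and vehicle libraries side by side and exact 95% Poisson intervals as lines. The open triangle marks Ciita in antibiotic pDCs, which had 0 UMIs. It is drawn at a fixed height near the foot of the axis, which is not a level. Cd74 was the most abundant gene in every class shown, from 25884 CPM in vehicle B cells to 394 CPM in antibiotic T cells.

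B cells held most of the class II RNA. They carried 80.0% of the summed UMIs of called cells in the antibiotic library and 78.4% in the vehicle library, although they were 19.01% and 33.5% of the cells. pDCs, cDCs and monocytes together carried 6.04% and 8.54%. The 2 members with the smallest B cell share were the H2-M chains H2-DMa and H2-DMb1. B cells carried 60.2% and 63.3% of H2-DMa, of which T cells held 22.9% and 13.9%. They carried 61.4% and 46.2% of H2-DMb1, of which the 3 myeloid and dendritic classes held 24.9% and 38.2%. For H2-Ob the same 3 classes carried 0.678% and 1.13%.

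Single cells varied widely around these means. The lowest, median and highest B cell had a summed 291, 45709 and 102810 CPM in the antibiotic library, against 0, 48627 and 93499.6 CPM in the vehicle library. Only 14 of 1340 antibiotic B cells (1.04%, 0.572% to 1.75%) and 37 of 3016 vehicle B cells (1.23%, 0.865% to 1.69%) had no UMI of H2-Aa, H2-Ab1 and H2-Eb1. Class II RNA was thus found in nearly every B cell of both libraries, and the libraries overlapped over almost their whole range. pDCs reached 456, 13305 and 88224 CPM in the antibiotic library, against 847, 17081 and 61327 CPM in the vehicle library. cDCs reached 1775.5, 51529.7 and 92456 CPM in the antibiotic library, against 4815, 53823 and 114600 CPM in the vehicle library. In monocytes the median lay far below the summed level, at 2296 CPM in antibiotic cells and 4516 CPM in vehicle cells, with the highest cells at 140078 and 210359 CPM.

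**Figure D2:**
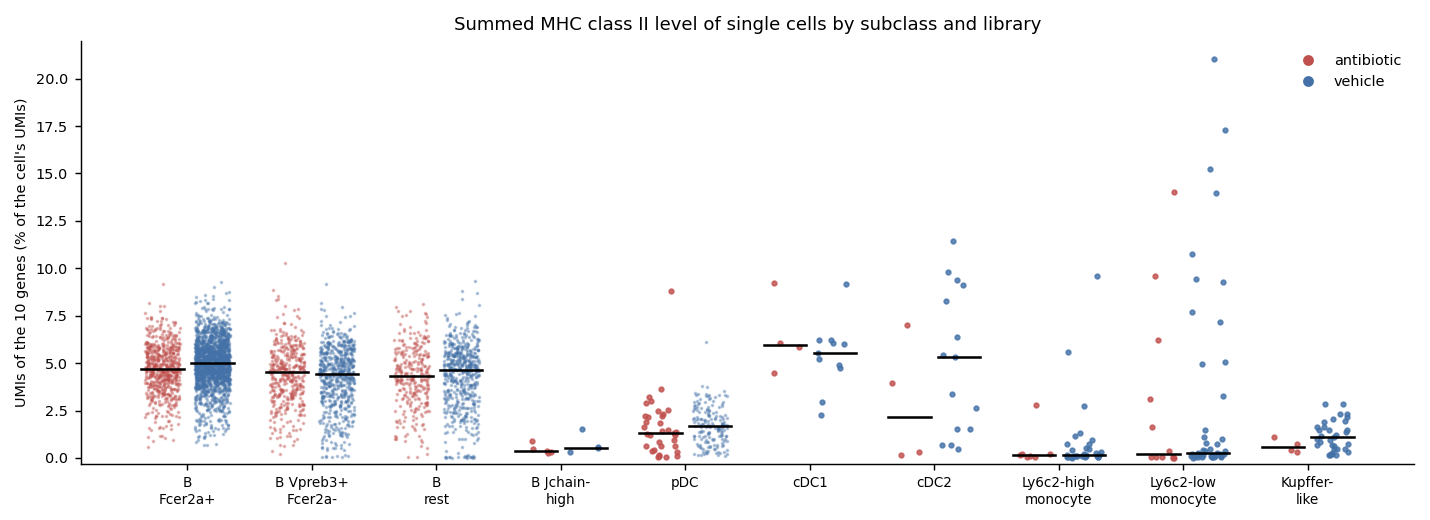
Summed UMIs of the 10 genes in each cell, as a percent of the cell's UMIs, with antibiotic cells left of vehicle cells. Groups are pDCs and the subgroups of B cells, cDCs and monocytes (defined below), points are cells and bars are medians. In CPM, medians ran from 43419 to 59524 in cDC1 and the B cell subgroups other than Jchain-high cells. They were 3625 and 5516 CPM in antibiotic and vehicle Jchain-high B cells, and 21357 and 53113 CPM in cDC2. Ly6c2-low monocytes of the vehicle library were spread from 0 to 210359 CPM.

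The uneven spread of monocytes came from a small group of cells. 5 of 23 antibiotic and 21 of 109 vehicle cells in the monocyte gate had 20000 CPM or more, and these carried 85.3% and 79.4% of the class's class II UMIs. Of them, 4 and 12 fell in the Ly6c2-low subgroup, the cells of the gate with fewer than 2 UMIs of Ly6c2, a gene of classical monocytes, and of the Kupffer cell genes. Summed monocyte genes stood at 15155 CPM in the antibiotic high cells, against 33281 CPM in the rest of the gate. In the vehicle library they stood at 21455 against 32897 CPM. Lyz2, Ly6c2, Ace, Treml4 and Fn1 were lower in the high cells of both libraries, and Ccr2 and Cx3cr1 were higher. Csf1r was lower there in the antibiotic and higher in the vehicle library. Of the 8 genes on the cDC list, the 3 that gate cDCs could reach no more than 1 UMI in a monocyte, by the order of the gates. The other 5 had 1 UMI in the antibiotic high cells, of Ccr7, and 15 UMIs in the vehicle high cells, of Naaa and Wdfy4, while Flt3 and Zbtb46 were at 0. Summed Kupffer cell genes stood there at 5979 CPM in the antibiotic library and 11276 CPM in the vehicle library, summed B cell genes at 2206 CPM in the antibiotic library and 599.99 CPM in the vehicle library, and summed T cell genes at 3293 and 1148 CPM, and the part of attached or doublet cells was not tested.

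Subgroups of the gate differed in level. Ly6c2-low cells (12 antibiotic, 43 vehicle) had a summed 27532 and 35245 CPM, against 5492 and 7998 CPM in Ly6c2-high cells (7 and 33). The Ly6c2-low level was 5.01-fold higher than the Ly6c2-high level in the antibiotic library (4.38 to 5.76) and 4.41-fold higher in the vehicle library (4.18 to 4.64). Kupffer-like cells (4 and 33), gated on the liver macrophage genes Clec4f, Vsig4, Cd5l and Timd4, had 6066 and 9671 CPM. The medians of single cells gave another order, with Kupffer-like cells highest in both libraries. They were 5950 and 11214 CPM in Kupffer-like cells, 2079 and 2749 CPM in Ly6c2-low cells and 1811 and 1687 CPM in Ly6c2-high cells.

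Among cDCs, cells with more Xcr1 and Clec9a than Cd209a (cDC1) had a summed 62390.4 CPM in the antibiotic library (4 cells) and 55029.8 CPM in the vehicle library (11 cells). cDC2 had 35354 and 48076 CPM (4 and 15 cells). For H2-Eb1 the cDC1 level was 2.57 times the cDC2 level in the antibiotic library and 1.28 times in the vehicle library. These values rest on 4 cells in each antibiotic subgroup.

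A few pDCs lacked the classical chains. 3 of 34 antibiotic pDCs (8.82%, 1.86% to 23.7%) and 3 of 174 vehicle pDCs (1.72%, 0.357% to 4.96%) had no UMI of H2-Aa, H2-Ab1 and H2-Eb1. Siglech was present in them by the gate. Of the other 5 genes on the pDC list, the 3 antibiotic cells had Bst2 at 2865 CPM and Tcf4 at 525 CPM, against 4308 and 1029 CPM in the other antibiotic pDCs. Klk1 and Ccr9 were at 47.7 CPM each (1 UMI), against 1365 and 641 CPM, and Cox6a2 had 0 UMIs, against 1179 CPM. All 5 were lower there than in the other antibiotic pDCs. Against the other vehicle pDCs, the 3 vehicle cells had higher Bst2 (5211 against 4451 CPM), Tcf4 (1287 against 981) and Cox6a2 (2638 against 1888). Klk1 (643 against 1109 CPM) and Ccr9 (386 against 602) were lower. The counting intervals overlapped for all 5 in the vehicle library. In the cells without chains H2-DMa stood at 668 and 901 CPM in the antibiotic and vehicle libraries. In the other pDCs it stood at 491 and 647 CPM, with overlapping intervals. Cd74 was at 47.7 and 836 CPM, against 10167 and 10092 CPM in the other pDCs.

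The balance of the classical chains and the invariant chain differed between B cells and dendritic cells. Cd74 was 59.6% of the 10 genes' UMIs in antibiotic B cells and 58.9% in vehicle B cells, against 43.9% and 48.2% in cDCs. H2-Eb1 was 42.0% and 42.2% of the UMIs of the β chains H2-Ab1 and H2-Eb1 in B cells, against 27.5% and 29.1% in pDCs. cDCs lay between these, at 33.4% and 36.9%. Monocytes, at 38.3% and 42.3%, came close to B cells in the vehicle library, and their intervals overlapped those of B cells in both libraries.

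The β chain gene of H2-M differed between classes. H2-DMb2 made up 86.9% of the H2-DMb1 and H2-DMb2 UMIs in antibiotic B cells (85.8% to 88.0%) and 91.0% in vehicle B cells, against 12.3% and 10.4% in cDCs, 9.76% and 18.03% in pDCs and 15.4% and 10.4% in monocytes. In levels, H2-DMb2 stood at 951 and 1114 CPM in B cells and at 145 and 137 CPM in cDCs, and H2-DMb1 at 143 and 110.5 CPM in B cells and at 1035 and 1185 CPM in cDCs. H2-DMa, the shared α chain, stood at 610.0 and 644 CPM in B cells and at 1107 and 1106 CPM in cDCs. The near-identity of both β chain copies leaves the exact split uncertain, yet the side on which the larger count lay differed between B cells and the 3 other classes in both libraries.

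H2-O made up a larger share in B cells than in pDCs, cDCs and monocytes. H2-Oa and H2-Ob, which are known from B cells and thymic epithelium, were 34.0% and 33.5% of the summed H2-O and H2-M UMIs in B cells, against 17.7% and 16.0% in pDCs, 12.3% and 11.8% in cDCs and 6.58% and 2.06% in monocytes. T cells, at 32.5% and 31.2%, and free RNA, at 32.8% and 32.1%, lay close to B cells, and vehicle T cells with Cd8b1 had 39.9% (35.8% to 44.2%). In B cells H2-Ob held 57.9% and 57.8% of the H2-O UMIs. In pDCs it held 7.32% and 12.3%, so that H2-Oa was counted there (177 and 172 CPM) with little H2-Ob (14.0 and 24.02 CPM). In the monocyte gate both were near 0, with 3 and 2 UMIs of H2-Oa and 2 and 8 UMIs of H2-Ob in the antibiotic and vehicle libraries.

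**Figure D3:**
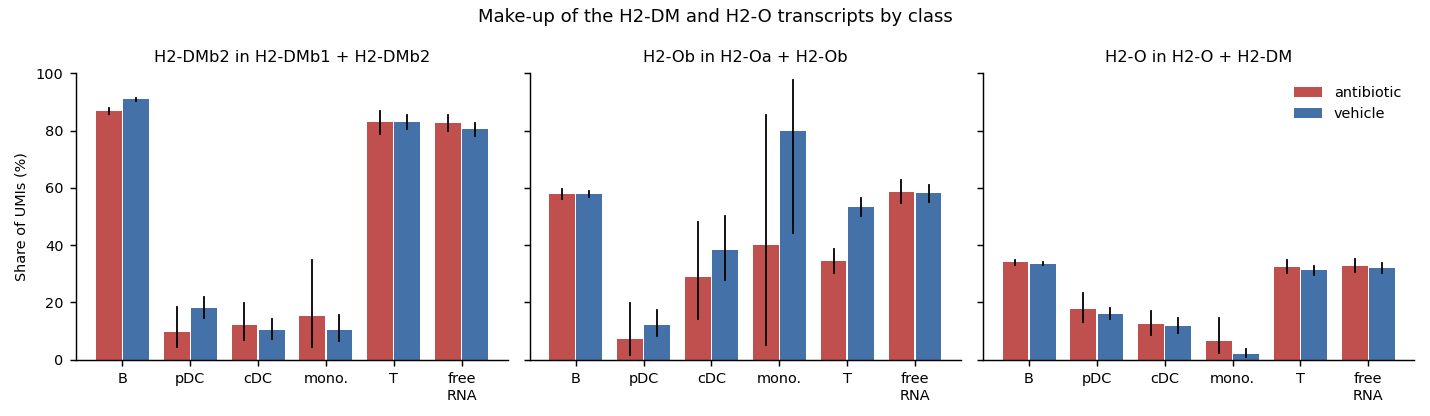
Share of H2-DMb2 in H2-DMb1 plus H2-DMb2 UMIs, of H2-Ob in H2-Oa plus H2-Ob UMIs, and of H2-O in H2-O plus H2-M UMIs, in percent, by class and in free RNA, for the antibiotic and vehicle libraries with Clopper-Pearson 95% intervals. H2-DMb2 held over 80% of its pair in B cells, T cells and free RNA and at most 18.03% in pDCs, cDCs and monocytes.

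Ciita, which encodes the transactivator, was a rare transcript. In the antibiotic and vehicle libraries it reached 145 and 66.5 CPM in cDCs (14 and 16 UMIs). In B cells it reached 86.2 and 64.7 CPM (291 and 565 UMIs). In vehicle pDCs it stood at 18.7 CPM (21 UMIs), and in antibiotic pDCs 0 UMIs were counted, which allows a level of up to 14.0 CPM at 3 counts. In monocytes it had 2 and 8 UMIs. With every cell thinned to 1500 UMIs, 13.8% of antibiotic and 9.75% of vehicle B cells had a Ciita UMI (19.2% and 16.5% before thinning), against 0.695% and 0.542% of T cells.

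Within B cells the genes of this pathway differed between subgroups. B cells with Fcer2a (CD23, a gene of follicular B cells) numbered 622 antibiotic and 1822 vehicle cells, 46.4% and 60.4% of the B cells. Fcer2a-negative cells with Vpreb3, a gene of immature B cells, made up 30.8% and 21.0%. The summed level in Vpreb3+ cells was 0.923 of that in Fcer2a+ cells in the antibiotic library and 0.834 in the vehicle library, and for H2-Aa it was 0.859 and 0.762. The 5 antibiotic and 4 vehicle B cells with 5 or more UMIs of Jchain, a plasma cell gene, had 4858 and 8102 CPM, or 0.108 and 0.1696 of the Fcer2a+ level. In those cells H2-Aa was at 199 and 208 CPM but Cd74 still at 3528 and 7133 CPM, and H2-Oa and Ciita had 0 UMIs in both, below limits of 31.4 and 41.5 CPM.

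Between treatments, the summed class II level of B cells was slightly lower with antibiotics, with 8 of the 10 genes lower and 2 higher. The sum stood at 41489.5 CPM in antibiotic and 43952 CPM in vehicle B cells, a ratio of 0.944 (0.938 to 0.9498). Cd74 stood at 24716 CPM against 25884 CPM (ratio 0.955, 0.947 to 0.962), H2-Aa at 5301 against 5578 CPM (0.9503, 0.934 to 0.967) and H2-Ab1 at 5112 against 5559 CPM (0.919, 0.904 to 0.936). H2-Eb1, at 3695 against 4055 CPM, had a ratio of 0.911 (0.893 to 0.930), and H2-DMb2 was the lowest of the 10 at 0.853 (0.819 to 0.888). For 8 of the 10 members the counting interval lay below 1, against 8.85% of all 10046 genes with 20 or more UMIs in B cells (an interval narrows as UMIs rise, so that such counts depend on abundance). None of the 8 reached a ratio of 0.8 or less, against 12.8% of all genes. The median log2 ratio of the members was −0.0901, against 0.0738 over all those genes.

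H2-DMb1 and Ciita went the other way in B cells. H2-DMb1 stood at 143 CPM in antibiotic and 110.5 CPM in vehicle B cells (ratio 1.30, 1.16 to 1.45), and Ciita at 86.2 and 64.7 CPM (1.33, 1.15 to 1.54). These 2 of 10 had a ratio at least 25% above 1, as had 22.4% of all those genes, so that their number was near the background. Their intervals lay above 1, as did those of 14.2% of all genes. H2-DMb1 was above 1 in each of the 3 larger B cell subgroups, at 1.22 in Fcer2a+ cells (1.05 to 1.43), 1.69 in Vpreb3+ cells (1.34 to 2.12) and 1.34 in the remaining cells (1.04 to 1.71). Both directions turned when cells were required to have 2500 or more UMIs, at log2 ratios of −0.0846 for H2-DMb1 and −0.0291 for Ciita, with 383 antibiotic and 1577 vehicle B cells left.

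The B cell make-up also differed between the libraries, and the sum moved differently in its parts. In Fcer2a+ cells the ratio was 0.943 (0.935 to 0.951), in Vpreb3+ cells 1.04 (1.03 to 1.06) and in the remaining cells 1.01 (0.999 to 1.03). Antibiotic B cells also gave more of their UMIs to immunoglobulin genes (3.898% against 3.03%) and had higher plasma cell genes (2230.3 against 1065.7 CPM) and erythroid genes (2184 against 1673 CPM), and lower hepatocyte genes (21.0 against 89.7 CPM). With each subgroup given its vehicle share, the log2 ratio of the sum was −0.0391, against −0.0832 as measured. It turned to 0.0378 when free RNA was subtracted by the hepatocyte genes. How much of the difference each of these accounts for was not tested.

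**Figure D4:**
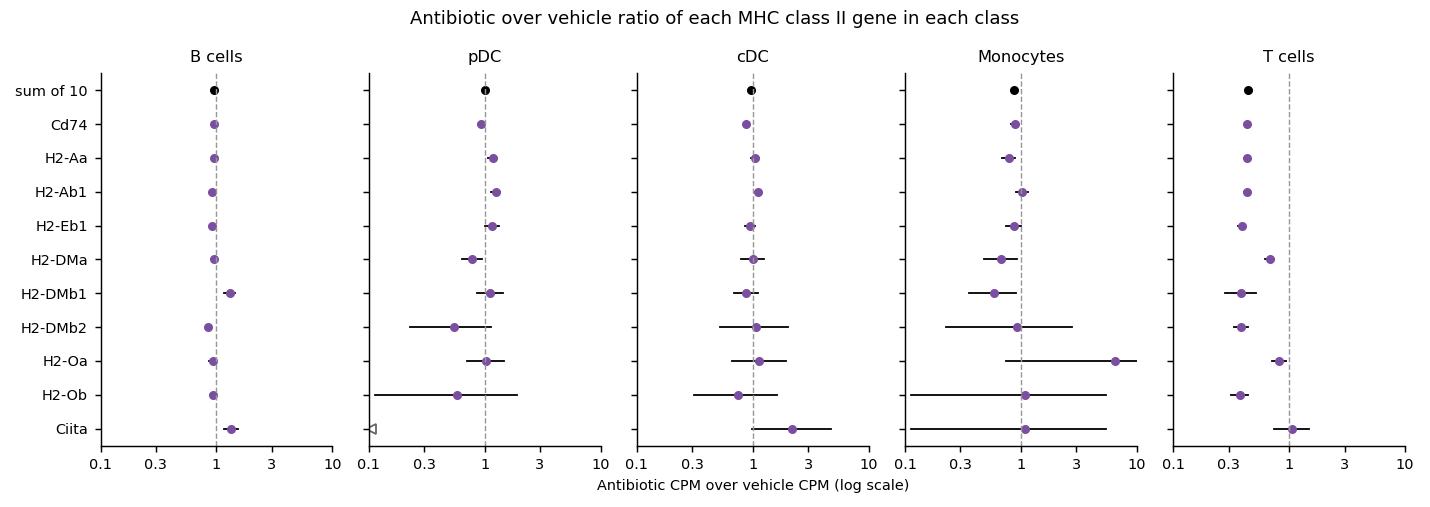
Antibiotic over vehicle ratio of each of the 10 genes in each class, on a log axis, with exact 95% counting intervals clipped at the axis ends of 0.1 and 10. The open triangle marks Ciita in pDCs, with 0 antibiotic UMIs. B cell ratios lie between 0.853 and 1.33, and T cell ratios between 0.374 for H2-Ob and 1.05 for Ciita.

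Between the pDCs of both libraries the members had ratios on either side of 1. In pDCs the sum was 17632 CPM with antibiotics against 17352 CPM with vehicle (ratio 1.02, 0.981 to 1.05). H2-Ab1 stood at 3121 against 2501 CPM (1.248, 1.15 to 1.36), H2-Aa at 3065.5 against 2617 CPM (1.17, 1.07 to 1.28) and H2-Eb1 at 1185 against 1025 CPM (1.16, 1.00 to 1.33). Cd74 was at 9178 against 9964 CPM (0.921, 0.878 to 0.966) and H2-DMa at 509 against 650.3 CPM (0.782, 0.633 to 0.958). 3 intervals lay above 1 and 2 below it, against 4.43% and 4.55% of all 6025 genes with 20 or more UMIs in pDCs. 4 of 10 members were at 0.8 or less, against a background of 30.6%. None was 25% or more above 1, against 23.7%, since H2-Ab1 lay just under that limit. The median log2 ratio of the members was −0.0362, against −0.0409 over all genes. With cells weighted alike the log2 ratio of the sum was −0.10, against 0.0231 as measured, so that the direction of the sum depended on that weighting. The sides of single genes also turned, with Cd74 at 1.03 under strict gates and H2-Eb1 at 0.787 after thinning to 1500 UMIs. Scrublet called 2.94% of antibiotic and 10.3% of vehicle pDCs doublets, and without them the ratio was 1.34 for H2-Ab1 and 0.952 for Cd74.

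In cDCs the sum was 49555 against 51655 CPM (ratio 0.959, 0.928 to 0.992), over 8 and 26 cells. Its subgroups lay on opposite sides of 1, with cDC1 at 1.13 (1.09 to 1.18) and cDC2 at 0.735 (0.695 to 0.777), over 4 antibiotic cells each. Genes of other cell types in the cDC gate differed in both directions. T cell genes stood at 207 against 982 CPM and monocyte genes at 2359 against 4043 CPM, but NK cell genes at 259 against 62.4 CPM. Their part in the cDC values was not tested. Cd74 had a ratio of 0.874 (0.831 to 0.919) and H2-Ab1 of 1.10 (1.02 to 1.19), and the other 8 intervals held 1 (over all genes, 6.63% lay above 1 and 6.49% below it). 1 of 10 members was 25% or more above 1 and 1 at 0.8 or less, against backgrounds of 21.4% and 34.3%. The direction of the cDC sum turned with median scaling, at a log2 ratio of 0.0283. In monocytes the sum stood at 15782 against 17978 CPM (ratio 0.878, 0.836 to 0.921), H2-Aa had a ratio of 0.786 (0.689 to 0.894), H2-DMa of 0.670 (0.478 to 0.919) and H2-DMb1 of 0.583 (0.356 to 0.913). These 3 of the 7 members with 20 or more UMIs were at 0.8 or less, against 34.5% of all genes, and none was 25% or more above 1, against 25.3%. 5 of the 10 intervals lay below 1, against 6.43% of all genes, and none above it, against 5.73%. The monocyte sum rested on 5 and 21 high cells, and thinning every cell to 1500 UMIs gave a log2 ratio of 0.00462, against −0.19 as measured. Within the gate the ratio of the sum was 0.687 in Ly6c2-high (0.598 to 0.786), 0.781 in Ly6c2-low (0.739 to 0.825) and 0.627 in Kupffer-like cells (0.525 to 0.745). These rest on 7, 12 and 4 antibiotic cells. The median Ly6c2-high cell was higher with antibiotics, at 1811 against 1687 CPM.

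T cells had the ratio farthest from 1 among the 5 classes, at very low levels. The sum was 746 CPM in antibiotic and 1685 CPM in vehicle T cells (0.443, 0.434 to 0.452). Cd74 stood at 394 against 906 CPM, H2-Aa at 89.6 against 208 CPM and H2-Ab1 at 104 against 242 CPM. 8 of 10 members were at 0.8 or less, against 19.2% of all genes in T cells, and none was 25% or more above 1, against 15.8%, with a median log2 ratio of −1.22 for the members against −0.0107 over all genes. Ciita (3.86 against 3.66 CPM) and H2-Oa (20.01 against 24.4 CPM) were the 2 members above 0.8, and the interval of Ciita held 1. H2-Oa lay above 1 under 5 of 10 alternatives, with a highest ratio of 2.17. The other 9 intervals lay below 1, against 24% of all genes, and none above it, against 18.9%.

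For 7 of the 10 members, the T cell level lay near a common share of the level in free RNA. RNA in barcodes with 1 to 49 UMIs, which stands for RNA outside cells, held the 10 genes at 7348 CPM in the antibiotic and 12326 CPM in the vehicle library (ratio 0.596, 0.587 to 0.606). The B cell genes of the marker list stood in T cells at a median 0.1004 of their free RNA level in the antibiotic library and 0.1495 in the vehicle library. At that share of free RNA the class II sum observed in T cells was 1.01 times the amount in the antibiotic library and 0.914 times in the vehicle library, with Cd74 at 0.983 and 0.906 and H2-Ob at 0.987 and 1.07. The lowest of the 7 were H2-Ab1, at 0.851 (0.813 to 0.891) and 0.812 (0.788 to 0.835), and H2-DMb1, at 0.899 (0.685 to 1.16) and 0.747 (0.638 to 0.870). Intervals below 1 were found for 2 of the 7 in the antibiotic library and 6 in the vehicle library. The H2-DMb2 share of its pair in all T cells, 83.1% and 83.0%, was near that of free RNA (82.7% and 80.5%). It was below that of B cells (86.9% and 91.0%), but in the antibiotic library the T cell interval (78.7% to 86.9%) overlapped that of B cells (85.8% to 88.0%). The T cell share is that of a mixture, since cells with and without B cell genes, described below, differed in it.

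3 members stood above that amount in T cells of both libraries. H2-DMa had 2.78 times the free RNA amount in antibiotic T cells (2.59 to 2.98) and 1.78 times in vehicle T cells (1.68 to 1.88), H2-Oa 2.68 (2.41 to 2.98) and 1.29 (1.17 to 1.41), and Ciita 3.08 (2.39 to 3.89) and 1.85 (1.44 to 2.34). Their UMI numbers were small, with 782 UMIs of H2-DMa, 358 of H2-Oa and 69 of Ciita over 4458 antibiotic T cells. The scale rests on B cell genes, and so counts B cell RNA alike whether it was free or came with a B cell in the same droplet. By the hepatocyte genes the share would be 0.0843 and 0.1001.

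Much of the class II RNA of the T cell gate lay in few cells. The 91 antibiotic (2.04%) and 214 vehicle T cells (5.27%) with 3 or more UMIs of the B cell genes Cd79a, Cd79b and Ms4a1 carried 7750 of 13346 and 21565 of 32188 class II UMIs, at 13013 and 14497 CPM. Their median depths were 5823 and 6370.5 UMIs, above the 3636.5 and 4193 UMIs of all T cells. In the 3635 antibiotic and 2608 vehicle T cells with 0 such UMIs, the sum was 318 against 619 CPM (0.513, 0.494 to 0.532). H2-Oa stood there at 14.5 against 13.8 CPM (1.05, 0.847 to 1.296) and H2-DMa at 38.04 against 49.9 CPM (0.762, 0.676 to 0.859). In the same cells H2-DMb2 had 92 UMIs to 32 of H2-DMb1 in the antibiotic library, and 166 to 71 in the vehicle library. In the cells with 3 or more B cell UMIs the numbers were 180 to 23 and 561 to 70, a larger H2-DMb2 share in both libraries. The software Scrublet called 2.06% of antibiotic and 5.98% of vehicle T cells doublets.

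**Figure D5:**
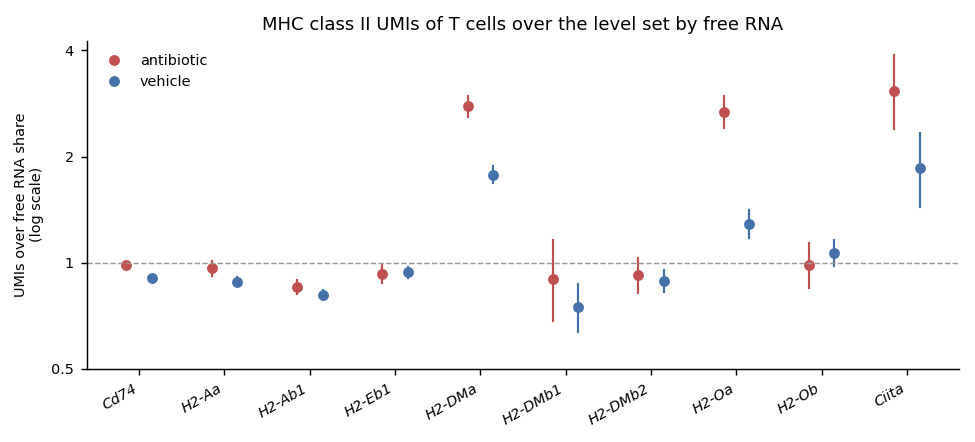
Observed UMIs of each of the 10 genes in T cells over the amount at the share of free RNA set by the B cell genes, on a log axis, for the antibiotic and vehicle libraries with 95% counting intervals. 7 genes lie between 0.747 and 1.07, while H2-DMa, H2-Oa and Ciita lie above it in both libraries.

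The other genes of the pathway were read from a list by role, of which 24 of 37 listed genes reached 50 CPM in a class. Pax5, a B cell identity factor, stood at 159 against 135 CPM in B cells (1.18, 1.06 to 1.30). Irf8, needed for dendritic cells, was at 3187 against 3302 CPM in pDCs (0.965, 0.888 to 1.05). In B cells 2 of 15 transcription genes were 25% or more above 1 and 4 at 0.8 or less, beside backgrounds of 22.4% and 12.8%.

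The median of the processing genes lay below that of all genes in each of the 5 classes. Ifi30, the thiol reductase of the endosome, stood at 171 against 234 CPM in B cells (0.731, 0.666 to 0.803) and 276 against 469.5 CPM in monocytes (0.587, 0.4003 to 0.838), but its interval in pDCs held 1 (1.17, 0.830 to 1.63). Cathepsin S (Ctss), which trims the invariant chain, stood at 2246 against 2582 CPM in monocytes (0.870, 0.763 to 0.989). Cathepsin L (Ctsl) was at 1218 against 1569 CPM in pDCs (0.776, 0.679 to 0.884). Of the 9 processing genes, 3 were at 0.8 or less and 1 was 25% or more above 1 in B cells. The numbers were 3 and 0 in pDCs, and 5 and 0 in monocytes, beside backgrounds at 0.8 or less of 12.8% in B cells, 30.6% in pDCs and 34.5% in monocytes. Their median log2 ratio was −0.17 in B cells, −0.21 in pDCs and −0.35 in monocytes, against 0.0738, −0.0409 and −0.0634 over all genes. It was −0.22 in cDCs and −0.30 in T cells, against −0.10 and −0.0107.

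Beyond the 10 members, the genes whose level across 12 profiles (6 cell groups in 2 libraries) was most like the sum were Napsa (Pearson r 0.957), Fgd2 (0.945), Plekho1 (0.938), Lyn (0.938), Spag9 (0.917), Fam69a (0.914), Btk (0.913), Ifi30 (0.913), Acox3 (0.906) and Ncf1 (0.902), among 4575 genes. The profiles share libraries, so r is a description. The members' own likeness to the sum ran from 0.998 for Cd74 through 0.974 for H2-DMa and 0.887 for H2-DMb1 to 0.755 for Ciita, 0.672 for H2-Oa, 0.616 for H2-DMb2 and 0.572 for H2-Ob. In single B cells at 1500 UMIs, Pearson r between H2-Aa and H2-Ab1 was 0.675 in the antibiotic and 0.689 in the vehicle library, the highest of the 45 pairs. The median over the pairs was 0.133 and 0.1396, and no pair with Ciita passed 0.107.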

How the data were processed

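The authors sequenced 3′ single-cell libraries of sorted CD45+ liver leukocytes and deposited raw UMI counts per gene and barcode; bcl2fastq, Cell Ranger and the mm10 build are named in the submitters' processing notes, and their versions were not given in the sources used here. All 10 gene IDs matched the annotation. Counts were used as deposited, with no normalization by the authors. Barcodes with at least 1500 UMIs and under 10% mitochondrial UMIs were cells, gated in order as B (2 Cd79a UMIs, no Cd3e), pDC (2 Siglech), cDC (2 of Xcr1, Clec9a and Cd209a), monocyte (5 Lyz2, 1 Csf1r) and T (2 Trac). UMIs were summed per class and divided by class totals (CPM). Barcodes of 1 to 49 UMIs gave free RNA. Shares of cells with a UMI used cells thinned to 1500 UMIs. A ratio 25% or more above 1, or of 0.8 or less, was counted among genes with 20 or more UMIs. Doublets were left in; Scrublet was an alternative. Code used Python 3.11.15, numpy 2.4.6, scipy 1.17.1 and scanpy 1.11.5, and was tested on simulated data. With 1 library per group there was no test. All 10 genes were described in every class; of the pathway list, genes with 50 or more CPM in a class could be named, with the 10 genes most like the sum. Genes and lists were chosen with earlier results of these data known.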

Additional observations from a re-analysis of the deposited data

Results flagged for a closer look

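Among B cells, pDCs, cDCs and monocytes, 7 cases had a gene's antibiotic over vehicle ratio on opposite sides of 1 in 2 classes. In these the counting intervals did not reach 1, and the difference between the classes was not tested. T cells, with 9 of 10 intervals below 1, were left out of these pairs. H2-Aa had a ratio of 1.17 in pDCs, against 0.9503 in B cells, and of 0.786 in monocytes, against 1.17 in pDCs. H2-Ab1 had 1.248 in pDCs and 1.10 in cDCs, against 0.919 in B cells. H2-Eb1 had 1.16 in pDCs, against 0.911 in B cells, and 0.862 in monocytes, against 1.16 in pDCs. H2-DMb1 had 0.583 in monocytes, against 1.30 in B cells. Some of these sides turned under alternatives. H2-Aa and H2-Ab1 in B cells came to 1.03 and 1.00 with free RNA subtracted by the hepatocyte list, H2-Eb1 in pDCs to 0.787 after thinning, H2-Eb1 in monocytes to 1.10 after thinning, H2-Ab1 in cDCs to 0.434 with the hepatocyte list, and H2-DMb1 in B cells to 0.943 with 2500 or more UMIs. The antibiotic pDCs, cDCs and monocytes numbered 34, 8 and 23 cells.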

How the results depend on the processing

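No paired analysis was possible because each group had 1 library, and no replicate could be left out. Values are log2 ratios, antibiotic over vehicle, unless a share is named. For the sum in B cells (−0.0832 as reported) the value was −0.27 with 2500 or more UMIs, −0.0955 without Scrublet doublets, −0.0567 with strict gates, −0.0720 with free RNA subtracted by the T cell list, −0.0623 with cells weighted alike, −0.0637 thinned and −0.15 with median scaling. It reversed to 0.0378 with the hepatocyte list. The pDC sum (0.0231) was 0.0830 without doublets, 0.19 with strict gates, −0.10 with cells weighted alike and −0.10 thinned. The cDC sum (−0.0599) was −4.34 with strict gates (2 and 13 cells left), −1.37 with the hepatocyte list, −0.17 weighted alike, −0.12 thinned and 0.0283 with median scaling. The monocyte sum (−0.19) was −0.32 with strict gates, −0.0345 weighted alike, −0.11 with median scaling and 0.00462 thinned. The T cell sum (−1.18) was −0.79 without doublets, −0.83 with strict gates, −1.85 with the hepatocyte list and −1.14 weighted alike.

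Some alternatives were chosen after seeing the data: B subgroups standardised (−0.0391), immunoglobulin genes left out of the B total (−0.0702) and T cells with 0 B cell UMIs (−0.96). T cells over B cells (log2 −5.80 antibiotic, −4.71 vehicle) were −5.48 and −4.56 with 2500 UMIs, −6.71 and −6.02 without doublets, −7.11 and −6.34 with strict gates, and −7.03 and −6.15 with no B cell UMIs. T cells over free RNA (−3.30, −2.87) were −4.19 and −4.14 without doublets, −4.54 and −4.46 with strict gates, −3.55 and −2.95 with barcodes of 1 to 19 UMIs, and −4.53 and −4.32 with no B cell UMIs. The B cell share of the UMIs (80.0% antibiotic, 78.4% vehicle) was 62.3% and 69.6% with 2500 UMIs, 83.5% and 83.0% without doublets, and 86.1% and 84.6% with strict gates. The share of pDCs, cDCs and monocytes (6.04%, 8.54%) was 13.6% and 12.9% with 2500 UMIs, 2.84% and 5.77% with strict gates and 6.38% in antibiotic cells without doublets. Of 428 single-gene values, 46 lay on the other side of 1 (8 in B cells, 5 in pDCs, 19 in cDCs, 9 in monocytes and 5 in T cells). 4 of them belonged to genes reported at 0.8 or less or at least 25% above 1: H2-DMb1 (−0.0846) and Ciita (−0.0291) in B cells at 2500 UMIs, and H2-Ob (1.76) and Ciita (−0.23) in cDCs with the hepatocyte list. The cause was not tested. Of 100, 79, 83, 73 and 93 single-gene values in B cells, pDCs, cDCs, monocytes and T cells, 66, 68, 61, 65 and 50 stayed within the counting interval. The hepatocyte list set the free RNA share at 0 in antibiotic and 0.659 in vehicle cDCs, and above 1 in monocytes, where it gave no value. Small cell numbers limit the pDC, cDC and monocyte values.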

Other observations

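The barcodes between free RNA and cells (at least 50 and under 1500 UMIs) held the 10 genes at 7628 CPM in the antibiotic library and 12331 CPM in the vehicle library, close to the free RNA levels of 7348 and 12326 CPM. Ungated cells with Ncr1 or Klrb1c, receptor genes of NK cells, stood at 903 and 2021 CPM. T cells with Cd8b1 stood at 408 and 1968 CPM (221 and 447 cells), and T cells with Cd4 at 872 and 1423 CPM (682 and 879 cells).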
